A study of Caenorhabditis elegans with 2 samples.

Results

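Small nucleolar RNA (snoRNA) genes that lie wholly inside the span of a protein-coding gene are described here, with their positions relative to binding sites of UNC-86-GFP in the worm Caenorhabditis elegans. Members were taken from the Ensembl annotation of the WBcel235 assembly (ce11) by a rule on position and biotype that uses no binding value. The rule found 216 such genes among 346 annotated snoRNA genes and 46890 annotated genes of all kinds. Of the 216 hosted genes, 183 lay on the same strand as the host and 33 on the opposite strand. The other 130 snoRNA genes lay wholly inside no protein-coding span, and partial overlap with such a span was not checked. The 216 members sat in 188 distinct hosts. A member with several hosts (4 genes) was assigned to a host on its own strand where there was one, and 1 member had hosts on both strands.

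Binding was measured by chromatin immunoprecipitation and sequencing (ChIP-seq) with an anti-GFP antibody in whole hermaphrodite late embryos, 3.5 hours after synchronization by egg bleaching. The single group held 2 biological replicates of the strain OP476, with the genotype unc-119(tm4063) III; wgIs476, in which a stable transgene expresses UNC-86 with a C-terminal GFP-FLAG tag. UNC-86 belongs to the POU homeodomain family and is known for specifying neuron identities. There was no comparison group. All summits therefore came from anti-GFP ChIP-seq of 1 line and from all cells of the embryo together. No ChIP-seq of a line without the tagged protein was among the samples. Signal from the tagged protein and signal that does not depend on it therefore cannot be told apart here. Genes called bound below are those with an IDR summit, and the word carries this limit. The replicates' lists held 17498 and 18470 peaks for replicates 1 and 2, the pooled list 12784, and the list past the authors' irreproducible discovery rate (IDR) threshold 816. Read depth was not given in the sources used here.

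snoRNAs guide chemical changes of ribosomal RNA in the nucleolus. Members of the C/D class direct 2′-O-methylation and members of the H/ACA class direct the conversion of uridine to pseudouridine. In vertebrates most snoRNAs are cut out of the introns of host transcripts and have no promoter of their own, whereas nematode snoRNA genes inside introns can also be transcribed from their own promoters. The A box and the B box are the promoter elements inside tRNA genes through which RNA polymerase III is recruited.

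The DNA before the 5′ end of 7 hosted genes is shown first, because the results on sequence turn on it. Each window is read on the strand of the snoRNA gene, from 110 bases before its 5′ end to 20 bases into it, and was taken from the RefSeq genome sequence of WBcel235. Capitals mark an A-box-like match (TGG, 3 bases, A, 2 or 3 bases, GG) and a B-box-like match (GNTCNANNC) that form a pair at the spacing given with the results. The window of C51F7.3 also holds other B-box-like letters, which form no pair at that spacing. Those inside its A-box-like match are part of the capitals there. Those that follow the A-box-like match more closely than that spacing are in lower case. The first 5 genes had an IDR summit, and the last 2 had the same elements but no IDR summit.
C51F7.3 in frm-7, chrV:12303598-12303727, plus strand: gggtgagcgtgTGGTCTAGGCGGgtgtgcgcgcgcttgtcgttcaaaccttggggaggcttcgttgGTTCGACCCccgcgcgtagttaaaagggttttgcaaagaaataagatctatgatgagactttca
T03F7.8 in cutl-18, chrV:11314148-11314277, plus strand: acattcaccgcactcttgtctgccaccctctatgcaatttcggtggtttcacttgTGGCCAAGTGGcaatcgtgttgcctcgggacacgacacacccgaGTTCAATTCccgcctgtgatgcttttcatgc
Y43F8C.22 in Y43F8C.7, chrV:19643168-19643297, minus strand: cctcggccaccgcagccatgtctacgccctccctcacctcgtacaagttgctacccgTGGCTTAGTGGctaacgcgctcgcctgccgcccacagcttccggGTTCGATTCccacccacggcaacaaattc
C04G6.12 in mpk-2, chrII:5105212-5105341, minus strand: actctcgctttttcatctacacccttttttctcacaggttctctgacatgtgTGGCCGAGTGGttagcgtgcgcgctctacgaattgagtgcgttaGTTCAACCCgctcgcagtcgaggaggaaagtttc
C05D2.15 in madf-11, chrIII:5602160-5602289, minus strand: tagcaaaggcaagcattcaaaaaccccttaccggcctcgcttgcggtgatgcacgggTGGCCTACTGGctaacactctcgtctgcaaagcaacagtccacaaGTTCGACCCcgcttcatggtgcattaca
H04D03.5 in smrd-1, chrIII:10432233-10432362, plus strand: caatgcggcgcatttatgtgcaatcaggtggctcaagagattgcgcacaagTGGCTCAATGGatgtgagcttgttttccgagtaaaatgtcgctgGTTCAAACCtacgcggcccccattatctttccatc
R166.7 in mnk-1, chrII:10545310-10545439, minus strand: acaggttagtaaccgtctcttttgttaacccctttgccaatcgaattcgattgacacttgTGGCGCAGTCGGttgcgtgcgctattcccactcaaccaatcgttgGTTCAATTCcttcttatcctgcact

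A further 2 windows carry no such pair of elements. ZK994.7, in the peroxidasin gene pxn-1, had the IDR summit of highest signal among the members with no such pair of their own or of a neighbour. K07C5.10 lies in nol-56, the gene of a core protein of C/D snoRNA particles, and had no IDR summit.
ZK994.7 in pxn-1, chrV:8500469-8500598, plus strand: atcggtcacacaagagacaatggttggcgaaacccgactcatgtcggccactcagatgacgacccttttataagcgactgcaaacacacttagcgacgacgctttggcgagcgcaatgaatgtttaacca
K07C5.10 in nol-56, chrV:10351334-10351463, minus strand: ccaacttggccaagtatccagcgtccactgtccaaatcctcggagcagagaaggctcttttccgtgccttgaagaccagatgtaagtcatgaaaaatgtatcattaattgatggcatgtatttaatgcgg

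The RNAs themselves are shown for 1 member of each class. C51F7.3 had the C/D pattern, with the C box TGATGA near its 5′ end and the D box CTGA near its 3′ end in capitals. Y43F8C.22 had the H/ACA pattern, with the ACA 3 bases before its 3′ end in capitals.
C51F7.3, chrV:12303708-12303783, plus strand: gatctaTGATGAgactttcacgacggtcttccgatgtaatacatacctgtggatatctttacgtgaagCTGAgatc
Y43F8C.22, chrV:19643050-19643187, minus strand: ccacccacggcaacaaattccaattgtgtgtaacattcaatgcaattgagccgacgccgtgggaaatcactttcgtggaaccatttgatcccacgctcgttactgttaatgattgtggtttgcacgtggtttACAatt

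A summit, the base of highest signal in a peak, lay within 300 bp of the midpoint of 29 of the 216 hosted snoRNA genes in the IDR list. That was 13.4% of them (95% Wilson interval 9.51 to 18.6), against 1.06% of all annotated genes. In long genes the midpoint lies far from the start, so the 1.06% misses summits at their starts. Counted within 2 kb of a transcript start, a wider range, 5.64% of protein-coding genes had an IDR summit. The 29 genes had 28 distinct summits, since C51F7.3 and C51F7.4 shared 1. In the pooled list 54 hosted genes (25%) had a summit, against 7.13% of all genes. The shares were 26.9% (58 genes) against 9.55% in the list of replicate 1 and 26.4% (57 genes) against 10.2% in the list of replicate 2. These longer lists also hold background regions, and the ratio between hosted and all genes was smaller in them. A count of 140 hosted genes had no summit in any of the 4 lists.

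Introns of the same hosts gave a local comparison. Of 1357 introns whose midpoint lay over 600 bp from any snoRNA gene, 2 (0.147%) had an IDR summit within 300 bp of the midpoint. In the pooled list 9.95% of these introns had one, in replicate 1 11.9% and in replicate 2 13.6%. These introns differ from the snoRNA genes in length and sequence, and no test was made of the difference.

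**Figure D1:**
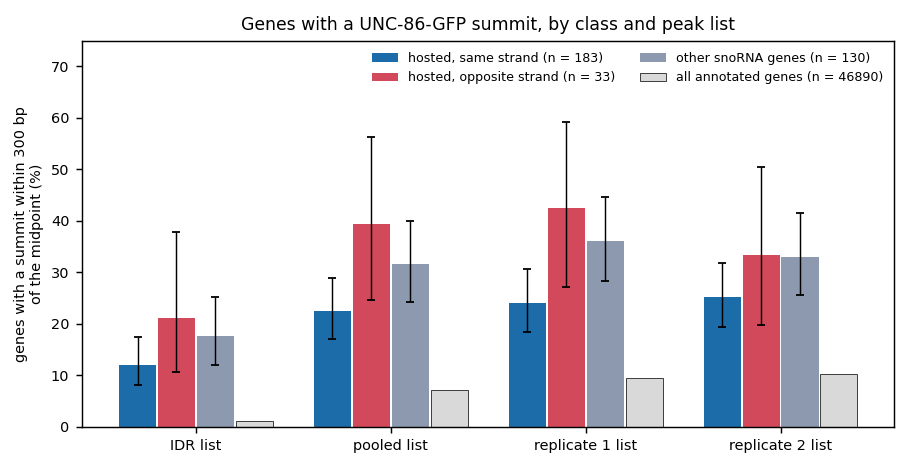
Percentage of genes (vertical axis) with a summit within 300 bp of the midpoint in each of the 4 peak lists, for hosted snoRNA genes on the same strand as the host, on the opposite strand, the other snoRNA genes and all annotated genes. Error bars are 95% Wilson intervals, which overlap between the 3 snoRNA classes, while in the IDR list all 3 classes stand above the 1.06% of all genes.

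The orientation of the snoRNA gene in its host was compared next. Of the same-strand members, 22 of 183 (12.02%, interval 8.07 to 17.5) had an IDR summit, and of the opposite-strand members 7 of 33 (21.2%, interval 10.7 to 37.8). The difference of -9.19 percentage points did not pass the threshold of 0.05 (Fisher's exact test, two-sided, p = 0.168). In the pooled list the shares were 22.4% on the same strand and 39.4% on the opposite strand. They were 24.0% and 42.4% for the same and the opposite strand in replicate 1, and 25.1% and 33.3% in replicate 2. The share was lower on the same strand in all 4 lists, which share reads. With 33 genes on the opposite strand the intervals were wide. A member on the opposite strand cannot be cut from the host's transcript.

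Hosted members were also set against the other snoRNA genes, those not wholly inside a protein-coding span. The share with an IDR summit was 13.4% of hosted and 17.7% of the other snoRNA genes (23 of 130, interval 12.1 to 25.2). The difference was -4.27 percentage points (Fisher's exact test, two-sided, p = 0.282). In the pooled list the shares were 25% of hosted genes and 31.5% of the others. Genes, not animals, were the units of both tests, so the p-values speak of the annotation's genes at these binding sites and not of replicates. The 2 p-values are not adjusted, and neither passed.

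Where hosted genes were bound, the peaks were among the stronger ones of the list. Signal is the authors' own value per peak, relative to a control, and serves here for description and ranking inside 1 list at a time. It ran from 66.7 to 557 at the 29 members with a median of 200.3, against a median of 90.9 and a range of 64.7 to 838 over all 816 IDR peaks. The IDR signal of each of the 29 was also the value of a peak in the pooled list. Of the 29 genes, 16 had a summit among the 100 highest-ranked IDR peaks. The median signal was 171 at same-strand members and 209.8 at opposite-strand members, and it was 183 at the other snoRNA genes.

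Both replicates held nearly all of these summits. Replicate 2 had a summit within 300 bp of all 29 genes and replicate 1 of 28, with F39B2.14 as the exception. The strongest such summit ranked among the top 816 of its list for 26 genes in replicate 1 and 27 in replicate 2, and for 26 in both. It ranked in the top 100 of both replicates' lists for 14 genes. Because both replicates entered the IDR list, some concordance is built into these counts.

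**Figure D2:**
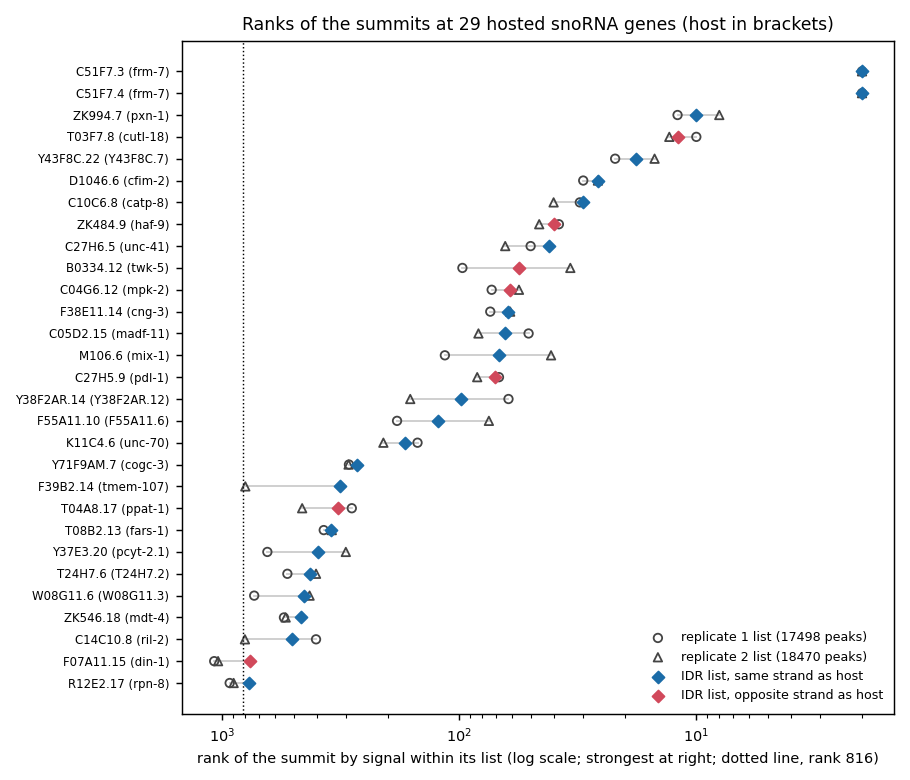
Rank by signal (horizontal axis, log scale, strongest at right) of the IDR summit and of the strongest summit within 300 bp in each replicate's list, for the 29 hosted snoRNA genes with an IDR summit, with host in brackets. The ranks of the replicates lie close together for most genes, and only F39B2.14 has no mark for replicate 1.

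The strongest summit lay at the pair C51F7.3 and C51F7.4 in frm-7, a gene for a FERM domain protein. Signal was 273 in replicate 1 and 280.3 in replicate 2, rank 2 in each replicate's list, and 557 with rank 2 in the IDR list. C51F7.4, on the same strand, ends shortly before C51F7.3 starts. The summit was 37 bases into C51F7.4 and 72 bases upstream of C51F7.3, and the paired elements shown above for C51F7.3 lie inside C51F7.4. The 2 genes are therefore 1 observation of binding.

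ZK994.7 in pxn-1, which encodes the extracellular matrix peroxidase peroxidasin, had signals of 180.3 and 193 in replicates 1 and 2, ranks 12 and 8. Its IDR signal was 376 with rank 10. T03F7.8 lies on the opposite strand in cutl-18, a cuticlin-like gene, and had signals of 192 and 157 with ranks 10 and 13 in replicates 1 and 2. It was the highest opposite-strand member, with an IDR signal of 348 and rank 12. Y43F8C.22 lies in Y43F8C.7, whose RefSeq product is subunit 10 of the endoplasmic reticulum membrane protein complex. Its signals were 139 and 155 in replicates 1 and 2, and its IDR signal of 287 ranked 18.

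D1046.6 in cfim-2, a gene of the pre-mRNA 3′-end cleavage machinery, had signals of 126 and 130.1 in replicates 1 and 2 and an IDR signal of 258. C10C6.8 in catp-8, a P-type ATPase gene, had 125 and 119 in replicates 1 and 2 and 249.9 in the IDR list. ZK484.9, opposite in strand to the ABC transporter gene haf-9, had 119 and 116 in replicates 1 and 2 and 231 in the IDR list. These 3 members ranked 26, 30 and 40 in the IDR list, and the replicates' ranks ran from 26 to 46. C27H6.5 in unc-41, which encodes a stonin-like protein of synaptic vesicle recycling, had 110.1 and 104 in replicates 1 and 2 and 228 in the IDR list.

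B0334.12, opposite in strand to the potassium channel gene twk-5, differed more between replicates, with 93.1 in replicate 1 (rank 97) and 122 in replicate 2 (rank 34). Its IDR signal was 215. C04G6.12, opposite to the MAP kinase gene mpk-2, had 102 and 109 in replicates 1 and 2 and 209.8 in the IDR list. The last of the 12 highest was F38E11.14 in cng-3, a cyclic nucleotide-gated channel gene, with 101 and 106 in replicates 1 and 2 and 209.5 in the IDR list. Of these 12 genes, 4 lay on the opposite strand, and all ranked 97 or better in both replicates.

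The other 17 members had IDR signals between 66.7 and 206. The highest was C05D2.15 in madf-11, whose protein has a MADF domain, with 110 in replicate 1 and 96.7 in replicate 2. M106.6 in mix-1, a condensin subunit gene, had 87.0 in replicate 1 and 118 in replicate 2, and C27H5.9, opposite to pdl-1, had 103 and 96.6. Next by IDR signal were Y38F2AR.14 in the 5-oxoprolinase gene Y38F2AR.12 (179), F55A11.10 in F55A11.6 (162) and K11C4.6 in the β-spectrin gene unc-70 (140). Between 80 and 120 stood Y71F9AM.7 in the Golgi complex gene cogc-3, F39B2.14 in tmem-107, T04A8.17 opposite to ppat-1, and T08B2.13 in the phenylalanyl-tRNA synthetase gene fars-1. Y37E3.20 in the phospholipid synthesis gene pcyt-2.1, T24H7.6 in T24H7.2, W08G11.6 in W08G11.3, ZK546.18 in the Mediator gene mdt-4 and C14C10.8 in ril-2 were in the same range. The lowest were F07A11.15, opposite to the nuclear receptor corepressor gene din-1 (67.0), and R12E2.17 in the proteasome subunit gene rpn-8 (66.7). At these last 2 genes neither replicate's summit reached the top 816 of its list, and the −log10 q value was 2.14 and 2.15, below the 3.08 of the other 27.

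The distance limit cut through a sparse range. The members just inside 300 bp were M106.6 at 130 bp, C10C6.8 at 133 bp and F39B2.14 at 282 bp from the midpoint. Just outside were F54E7.10 in rps-12 at 320.5 bp (signal 127), C27H5.10 opposite to pdl-1 at 346.5 bp, whose nearest summit was that of C27H5.9, and Y24D9A.9 in rpl-7A at 487 bp (signal 122).

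Most summits lay just upstream of the snoRNA. Measured on the snoRNA's own strand, the IDR summit was a median of 34 bases upstream of the 5′ end (offset -34, interquartile range -55 to -9). In 23 of 29 genes it lay within the 100 bases upstream. It fell inside the gene in 4 (C51F7.4, ZK546.18, R12E2.17 and F07A11.15), 131 bases past the 5′ end and beyond the 3′ end of B0334.12, and 165 bases upstream of F39B2.14. The median offset was -39.5 for same-strand and -29 for opposite-strand members, and it was -52 for the 23 other snoRNA genes, all of whose summits lay within 101 bases upstream.

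The nearest transcript start of the host was a median of 1152 bp from the IDR summit. In 5 genes it was within 300 bp (the members in cogc-3, tmem-107, din-1, F55A11.6 and cfim-2), and there binding near the snoRNA and binding near the host's start cannot be told apart by position. In 12 it was within 1 kb. The farthest was M106.6, whose summit lay 15978 bp from a start of mix-1. No tRNA, snRNA or miRNA gene had its midpoint within 300 bp of any of these summits.

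**Figure D3:**
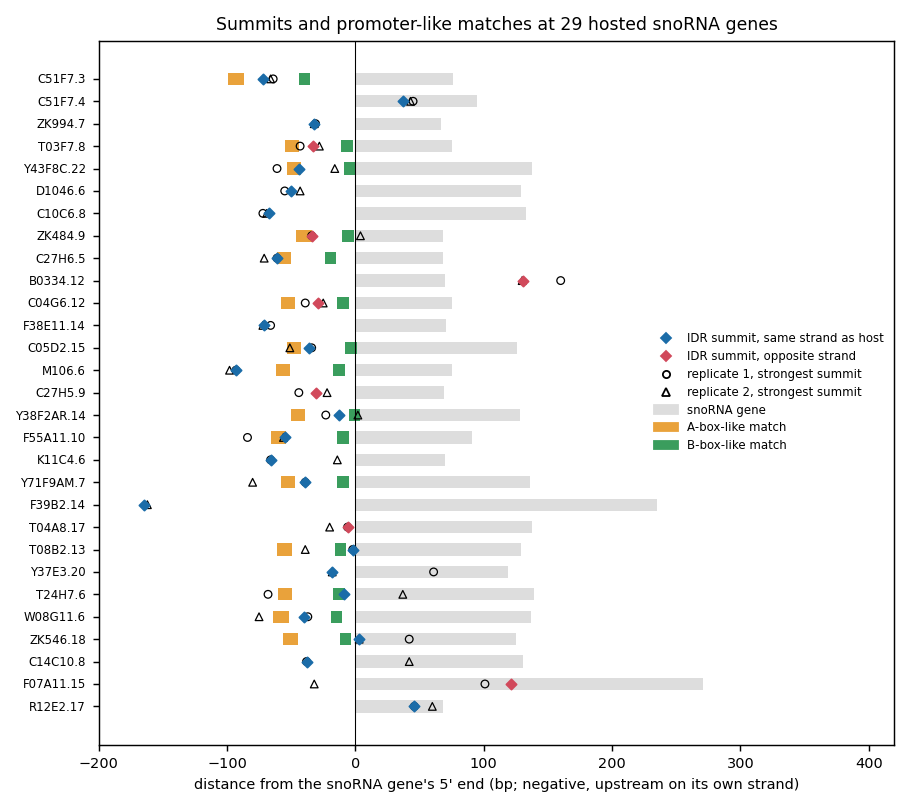
Positions relative to the snoRNA gene's 5′ end (horizontal axis, bp, negative upstream on the gene's own strand) of the IDR summit, the strongest summit of each replicate, the gene and the A-box-like and B-box-like matches, for the 29 hosted genes with an IDR summit in order of signal. Of the 29 IDR summits, 23 fall in the 100 bases upstream, and the A-box-like match lies upstream of the B-box-like match in the 15 genes that have both.

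A pair of elements was present before the 5′ end of 15 of the 29 bound genes and absent from the other 14. It was defined as an A-box-like match followed on the snoRNA's strand by a B-box-like match that starts 20 to 60 bases after the end of the first, and this definition was made after the windows of bound snoRNA genes had been read. Its count is thus a description and no independent support. The pair was present in 18 hosted genes, of which 15 had an IDR summit (83.3%, interval 60.8 to 94.2). Of the 198 hosted genes without the pair, 14 had one (7.07%). C51F7.4, which shares its summit with C51F7.3 and holds the pair of C51F7.3 inside it, is 1 of these 14. Among the other snoRNA genes, 11 of 12 genes with the pair and 12 of 118 without it (10.2%) had an IDR summit.

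The pair occurred on both strands relative to the host. Of same-strand members with the pair, 12 of 13 had an IDR summit, against 10 of 170 without it. On the opposite strand it was 3 of 5 with the pair and 4 of 28 without it. In the equivalent window at the 19973 protein-coding genes the pair occurred once (0.00501%). From 20 bases before to 110 bases after the 5′ end of tRNA genes, where such elements are known to lie, 353 of 612 (57.7%) held it.

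In the 15 bound genes the A-box-like match started a median of 58 bases before the 5′ end and the B-box-like match a median of 14 bases before it, with a median of 44 bases between the starts. The summit fell between the start of the first and the end of the second in 12 of the 15. Bound genes with the pair had a median signal of 204, and bound genes without it 170.2, with ranges of 84.9 to 557 and 66.7 to 557. The 557 in both ranges is the 1 summit shared by C51F7.3, with the pair, and C51F7.4, without it. That summit enters both medians. The next highest signal without the pair was 376, at ZK994.7, so the ranges overlap without the shared summit too. A match to these letters does not show that a factor binds there.

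The stricter B box GTTCNANNC was searched on both strands of the gene and the 100 bases before it. Of 34 hosted genes with it, 14 had an IDR summit (41.2%), against 15 of 182 without it (8.24%). The other snoRNA genes were similar, with 12 of 27 genes with it (44.4%) and 11 of 103 without it (10.7%). The same pattern occurred in 7.28% of protein-coding and 96.2% of tRNA windows. A TATAAA match in the 100 bases before the gene was present in 9 hosted genes, of which 1 had an IDR summit. It was found at 12.7% of protein-coding genes. A GAGAGA match on either strand lay within 100 bases of the summit at 8 of the 29 hosted and 5 of the 23 other bound snoRNA genes. Its share at other peaks or at unbound genes was not computed, so whether these counts are high was not tested.

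**Figure D4:**
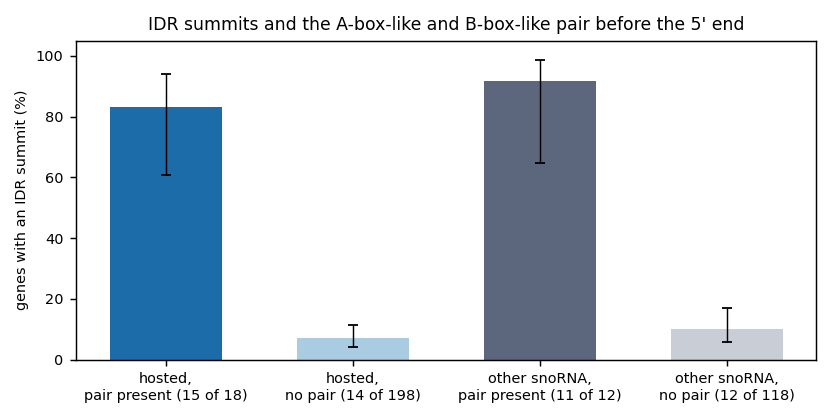
Percentage of snoRNA genes (vertical axis) with an IDR summit, for hosted genes and the other snoRNA genes with and without the A-box-like and B-box-like pair in the 130-base window around the 5′ end. Error bars are 95% Wilson intervals, and the definition of the pair was made after windows of bound genes had been read.

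The 3 hosted genes with the pair and no IDR summit were examined in the other lists. H04D03.5, opposite to the chromatin remodeler gene smrd-1, had the highest pooled signal of all hosted genes without an IDR summit (63.6), just under the lowest IDR signal of 64.7. R166.7 in the kinase gene mnk-1 had a pooled signal of 32.9 and a summit in replicate 2 only. Y6B3B.15, opposite to the ceramide synthase gene lagr-1, had no summit in any list.

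In all, 25 hosted genes had a pooled summit without an IDR summit, H04D03.5 and R166.7 among them. After H04D03.5 the highest were F11A10.9 in rbm-34 (51.1), smy-2 in C33A12.3 (48.9), C17D12.8 opposite to pcmd-1 (45.3) and Y71D11A.7 in acsd-1 (45.1). The replicates were uneven at some of these. F11A10.9 had a signal of 14.5 in replicate 1 and 45.7 in replicate 2, and smy-2 had 33.6 in replicate 1 and 13.6 in replicate 2.

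By function, the hosts of bound members were varied, and 1 of them was classed by symbol with the translation machinery or the nucleolus. Vertebrate snoRNAs often lie in genes for ribosomal proteins and other parts of the translation machinery. Of the 29 members in genes for ribosomal proteins, translation factors, aminoacyl-tRNA synthetases or nucleolar proteins, 1 had an IDR summit (3.45%, interval 0.611 to 17.2), T08B2.13 in fars-1. The 1.06% of all annotated genes lies inside that interval, and so do the 13.4% of all hosted genes and the 14.8% of members in hosts outside all named classes. The count thus does not separate these 29 members from either. None of the 19 members in ribosomal protein genes had one, an upper Wilson bound of 16.8%, and 1 of them, F28C6.11 in rpl-26, had a pooled summit (33.7). Classes named by symbol can leave out hosts of the same function, with or without summits. An example is Y37E3.8, whose RefSeq product is ribosomal protein uL15 and whose 2 members had no summit in the IDR or pooled list. Of the 183 members in hosts outside all named classes, 27 had an IDR summit (14.8%, interval 10.3 to 20.6). No test was made between host classes, and all 29 members in translation and nucleolus hosts lay on the same strand.

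Hosts with 3 or more members had no IDR summit at any of them. The snoRNP gene nol-56 held 4 (K07C5.10, K07C5.11, K07C5.12 and K07C5.18), the ribosomal protein gene rpl-6 held 3 (R151.11, R151.12 and R151.13), and the topoisomerase gene top-2 held 3 (K12D12.6, K12D12.7 and K12D12.8). In the replicate lists, K07C5.11 had a summit in replicate 1 (23.7), and none of these 10 genes had one in the pooled list.

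Members in translation and nucleolus hosts also sat differently in their introns. The snoRNA's 5′ end followed the preceding exon, in the snoRNA's direction, by a median of 29 bases (interquartile range 26.5 to 33, n = 27 in introns). In other hosts the median was 212 bases (n = 142). Members with an IDR summit had a median of 169 bases there (41 to 741, n = 24), and members without one 165 bases (6 to 9381, n = 145). The lowest value at a bound member was thus 41 bases, at B0334.12, whose summit lay beyond its 3′ end. The 29-base median is shorter than the median of 58 bases by which the A-box-like match preceded the 5′ end in the 15 bound genes with the pair. Whether the length of intron before the gene has a part in binding was not tested.

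**Figure D5:**
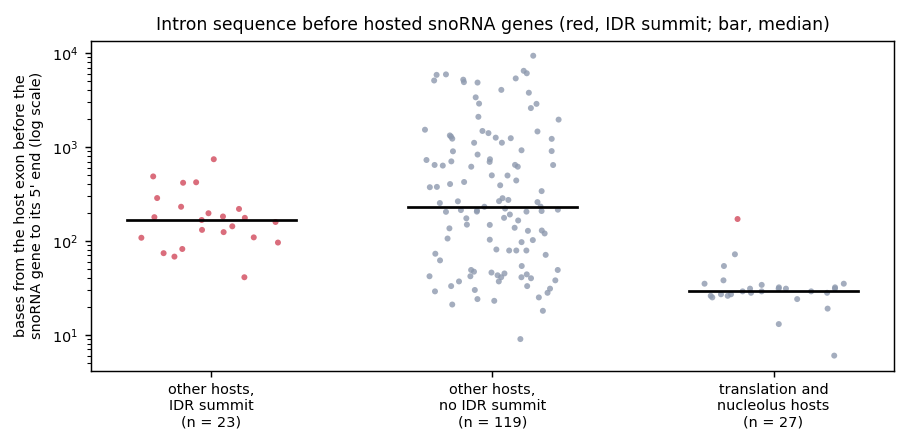
Bases (vertical axis, log scale) between the host exon before a snoRNA gene and its 5′ end, for hosted genes in introns of other hosts with and without an IDR summit and of translation and nucleolus hosts. Each point is a gene, red with an IDR summit, and the bar is the median. The translation and nucleolus hosts cluster near 29 bases, and T08B2.13 at 171 bases is their only red point.

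The members' own features were described in the same way. Bound genes were a median of 119 bases long (67 to 271) and hosted genes without an IDR summit 128 bases (54 to 325). Among the other snoRNA genes the medians were 75 bases with an IDR summit (n = 23) and 154 without one (n = 107). Of 63 hosted genes of up to 100 bases, 14 had an IDR summit (22.2%), against 15 of 153 longer ones (9.80%). The C/D pattern was found in 9 hosted genes, of which 3 were bound, and the H/ACA pattern in 60, of which 10 were bound. Most hosted genes matched neither pattern, so the classes cannot be compared on this basis.

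Position in the host and on the chromosomes varied without a test. An IDR summit was found at 24 of 169 members in introns, 3 of 23 that overlapped a coding exon and 2 of 24 that overlapped a non-coding exon. By chromosome, 10 of 39 members on V were bound, 7 of 43 on II, 6 of 44 on I, 4 of 36 on IV, 2 of 44 on III and 0 of 10 on X. The intervals of V (14.6 to 41.1%) and III (1.26 to 15.1%) overlapped slightly, and for X the upper bound was 27.8%.

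The genes for the proteins that work with snoRNAs were read as the wider pathway. Of 13 nucleolar and snoRNP protein genes matched by symbol, 4 had an IDR summit no more than 2 kb from one of their transcript starts, against 5.64% of all protein-coding genes. These were fib-1, which encodes the methyltransferase fibrillarin of C/D particles (146 bp, signal 143), nol-58, a core C/D protein gene (268 bp, signal 74.3), Y48A6B.3 (364 bp, signal 74.8) and nola-3 (607 bp, signal 75.4), the last a gene for a small H/ACA particle protein. The pseudouridine synthase gene dkc-1, snu-13, nucl-1, nol-56 and 5 other nol genes had none within that range. With 13 genes, chosen as a pathway list, the count is a description.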

How the data were processed

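The values come from 4 ce11 peak lists deposited by the authors, and no reads were used. Each list gives a signal value and a −log10 q value per peak, which the authors' caller made against a control alignment, per the file headers. Aligner, caller, IDR threshold and depth: not given in the sources used here. No limit from depth can therefore be set. Summits are the peak start plus the deposited offset, written 1-based, and the nearest to each gene midpoint was taken, with the strongest within 300 bp given for replicates. Genes came from Ensembl release 115 and host products and genome sequence from RefSeq, both WBcel235. Intervals are 95% Wilson intervals and cover counting over genes only. Strand and hosted status were compared by Fisher's exact test, two-sided. All hosted genes with an IDR summit are named, the 12 highest in full, with those next to the distance limit, the 5 highest pooled signals without an IDR summit, and hosts of 3 or more members. The rule for members uses the annotation alone, but this gene group and the lists were chosen with earlier results of these data known. The symbol gar-1 names another protein in worms and was dropped from the pathway list after values were seen. The procedure was tested on simulated data. Python 3.11.15, pandas 2.3.3, numpy 2.4.6, SciPy 1.17.1 and matplotlib 3.10.9 were used.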

Additional observations from a re-analysis of the deposited data

How the results depend on the processing

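The 2 differences between shares kept their direction and their side of the threshold in all their alternatives. The count of hosted genes and the median signal have no direction or threshold, and their ranges are given below. There were 28 alternatives over the 4 results. These changed the distance to 150 or 600 bp, took the stronger part of the IDR list, left out a replicate, counted only genes off protein-coding exons, dropped repeated genes, counted loci in place of genes, or took 1 value per summit. Where a replicate was left out, the 816 highest peaks of the other replicate's list stood in for the IDR list. The number of hosted genes with a summit ran from 23 to 34. The difference between the same and the opposite strand ran from -10.0 to -5.61 percentage points (Fisher's exact p from 0.132 to 0.406), and that between hosted and other snoRNA genes from -5.96 to -3.49 (p from 0.159 to 0.437). The median signal ran from 189.8 to 202, with the strongest summit in place of the nearest, chosen after seeing the data, among its alternatives. Lists in ce10 were not used here. No paired analysis was possible because there was 1 group. Unknown depth, 33 opposite-strand genes and 1 line limit what the shares can show. Among the hosted genes, 1 had no 30-base stretch found once in the genome, and mapping there was not tested.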
